A study of Mus musculus with 4 samples.

Results

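The Wnt receptors of the Frizzled family and the Lrp co-receptors were followed in cultured mesenchymal cells of the mouse hair follicle. Members were the rows of the deposited count matrix whose gene name was Fzd1 to Fzd8, Lrp5 or Lrp6, which gave 10 genes, 8 Frizzled and 2 Lrp, of 51826 in the table. RNA was sequenced from dermal papilla cells (DPCs), which sit at the base of the follicle, and dermal sheath cells (DSCs), which surround it. Both came from vibrissa (whisker) follicles. The donors were EGFP-transgenic mice of the C57BL/6J strain, 5 to 6 weeks old, although the labels give the genotype as WT for every library. Low passage stands for passage 3 and high passage for passage 9, and no other treatment was named. Each of the 4 groups was 1 library, so no difference below has a replicate check, and the labels do not say how many animals were pooled. The question was how the receptor set differed between low-passage and high-passage cells of each type, in a study of how passage bears on the homing of these cells to follicles.

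Frizzled proteins are receptors that span the membrane and bind Wnt ligands through an outer cysteine-rich domain. Lrp5 and Lrp6 are single-pass co-receptors. When a Wnt joins a Frizzled to Lrp5 or Lrp6, Dishevelled is drawn to the Frizzled and Axin to the Lrp tail, β-catenin is no longer destroyed, and TCF/LEF factors switch on target genes. Other Wnts act through Frizzleds without Lrp, and Fzd3 and Fzd6 are best known for planar cell polarity. In hair follicles, Wnt signalling in the dermal papilla is known to support its ability to induce hair growth.

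The coding bases of the sites where the receptors meet these partners are shown first, because they are what the Frizzleds share although their expression differs. The Lys-Thr-X-X-X-Trp motif, just inside the last membrane span, contacts Dishevelled. It occurred 1 time in the translated coding sequence of each of the 8 Frizzleds. It stood 17 residues from the end of Fzd1, Fzd2 and Fzd7, 33 from that of Fzd4, 55 from that of Fzd5, 74 from that of Fzd8, 159 from that of Fzd3 and 206 from that of Fzd6. The bases from the GENCODE M21 transcripts (GRCm38) of 7 of them are given on the coding strand, with the Lys, Thr and Trp codons in capitals.
Fzd1, chr5:4755706-4755723, minus strand: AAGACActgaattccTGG
Fzd2, chr11:102606373-102606390, plus strand: AAGACActgcactcgTGG
Fzd7, chr1:59484607-59484624, plus strand: AAGACCctgcagtcaTGG
Fzd5, chr1:64735011-64735028, minus strand: AAGACTctggagtctTGG
Fzd4, chr7:89408241-89408258, plus strand: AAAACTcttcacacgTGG
Fzd3, chr14:65212107-65212124, minus strand: AAGACAtgctttgaaTGG
Fzd6, chr15:39033949-39033966, plus strand: AAGACGtgcacagaaTGG

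The Lrp tail carries proline-rich Ser/Thr-Pro motifs which, once phosphorylated, bind Axin. A search for 3 prolines followed by Ser or Thr and a further proline found 3 sites in Lrp5 and 3 in Lrp6, the last of them 5 residues from the end in both. The coding bases of that last site are given with the Ser-Pro codons in capitals.
Lrp5, chr19:3585048-3585062, minus strand: cccccaccgTCCCCC
Lrp6, chr6:134450804-134450818, minus strand: ccaccacccTCCCCC

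The receptors formed subfamilies by sequence. The translated proteins of Fzd1 and Fzd2 were 81.0% identical over 564 aligned residues, Fzd1 and Fzd7 80.5%, Fzd2 and Fzd7 79.4%, Fzd5 and Fzd8 71.0%, and Lrp5 and Lrp6 69.4%. Fzd4 and Fzd6 were the least alike pair, at 36.2%. Fzd1, Fzd2, Fzd5, Fzd7 and Fzd8 were coded in 1 exon, Fzd4 in 2, Fzd3 and Fzd6 in 6 and each Lrp in 23. At the RNA level the copies were distinct, since at most 0.722% of the 50-base windows of a member (Lrp6) occurred in another gene, and no member shared exonic bases with a gene on its own strand. Fzd5 overlapped the antisense gene Gm38058 over 1233 exonic bases and Fzd6 overlapped Gm26704 over 152. Wherever 4 values follow in a row, the libraries are DPCs at low and high passage and then DSCs at low and high passage. Gm38058 had 3, 7, 21 and 33 counts and Gm26704 had 0, 5, 11 and 8, all far under the receptors they overlap.

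RefSeq (GRCm38.p6) upstream sequence was held for 4 of the 10 members, Fzd1, Fzd4, Fzd5 and Fzd7. The 250 bases before the RefSeq start are printed for 3 of these, which moved in different ways with passage. That start need not be the gene start of the positions given below. The windows of Fzd1 and Fzd7 lie apart from the gene, and that of Fzd4 runs into it. Matches on either strand to the GC box (GGGCGG), the CCAAT box (CCAAT), the TATA box (TATAAA) and the TCF/LEF core (CTTTGA) are in capitals, and overlapping matches were each counted.
Fzd4, chr7:89404116-89404365, plus strand: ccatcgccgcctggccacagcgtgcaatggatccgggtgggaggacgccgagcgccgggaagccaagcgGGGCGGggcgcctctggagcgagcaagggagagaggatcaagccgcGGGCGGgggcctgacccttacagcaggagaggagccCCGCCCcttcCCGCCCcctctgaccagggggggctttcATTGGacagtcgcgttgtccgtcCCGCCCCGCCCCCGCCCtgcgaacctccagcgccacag
Fzd5, chr1:64737751-64738000, minus strand: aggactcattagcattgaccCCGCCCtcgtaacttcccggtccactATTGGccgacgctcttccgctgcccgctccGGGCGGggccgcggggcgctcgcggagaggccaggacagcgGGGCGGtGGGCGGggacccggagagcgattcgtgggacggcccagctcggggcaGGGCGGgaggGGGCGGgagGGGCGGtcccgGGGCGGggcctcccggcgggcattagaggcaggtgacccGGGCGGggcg
Fzd7, chr1:59481897-59482146, plus strand: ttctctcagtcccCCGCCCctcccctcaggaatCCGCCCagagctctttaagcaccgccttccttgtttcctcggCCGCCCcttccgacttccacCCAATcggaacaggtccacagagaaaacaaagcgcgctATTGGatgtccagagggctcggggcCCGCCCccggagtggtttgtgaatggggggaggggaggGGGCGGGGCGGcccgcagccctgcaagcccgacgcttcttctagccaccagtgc

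Fzd4 held 7 GC boxes and 1 CCAAT box, Fzd5 held 9 and 1, and Fzd7 held 6 and 2. None of the 3 held the TATA box or the TCF/LEF core in this window. Fzd1 differed, with 1 TATA box, 1 TCF/LEF core and no GC or CCAAT box. Among 32851 upstream windows of this length, 32.7% held the GC box, 33.8% the CCAAT box, 12.4% the TATA box and 13.8% the TCF/LEF core. A match of letters does not show that a factor binds.

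Depth was similar across the libraries, with a total count between 34981284 and 47604059. All 10 receptors were among the 16734 tested genes, whose raw counts averaged 10 or more. Of the dermal papilla markers, Sox2 stood at 45.6, 41.5, 7.09 and 3.91 CPM (counts scaled to library size), higher in DPCs, whereas Ncam1 was higher in DSCs at 310 and 342 CPM against 99.0 and 46.6, and Alpl and Corin had 23 counts or fewer in every library. Of 10 keratinocyte markers, 5 were at 0 in every library, Krt5 and Krt14 among them, while Dsp had 10, 184, 84 and 2307 counts. Acta2, the smooth muscle actin of the sheath, was abundant in all libraries, at 7123, 1871, 5728 and 4330 CPM. The dermal sheath list summed to 9999, 2828, 8419 and 6758 CPM. Both were higher in DPCs than in DSCs at low passage, and lower at high passage. Markers of other cells moved with passage: 4 of 6 tested Schwann markers and 4 of 5 tested immune markers were 2-fold lower at passage 9 in DPCs, and 4 of 6 and 2 of 5 in DSCs. The summed Schwann list fell from 14.6 to 6.35 CPM in DPCs and from 36.3 to 10.7 CPM in DSCs, with Sox10, Ngfr and Cdh19 at 0 counts at passage 9 in either cell type. The summed immune list went from 113 to 63.7 CPM and from 164 to 92.3 CPM. Of 4 tested endothelial markers, 3 were 2-fold lower with passage in DPCs and 4 in DSCs, and Vwf was higher in DPCs at passage 9. The fibroblast list, which marks the cultured cells themselves, moved most in DPCs, where 5 of 9 markers were 2-fold lower with passage and 1 was higher, and in DSCs 0 and 3. Its sum was 27889, 9731, 46186 and 40743 CPM. On the log2 scale, Col1a1 changed by -2.57, Col3a1 by -3.00 and Fn1 by -1.98 in DPCs. More receptors were at least 2-fold higher at passage 9 in DPCs than in DSCs. The part of these shifts and of these cells in the receptor values was not tested. In bulk RNA, fewer cells of a type and less RNA per cell cannot be told apart.

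Compared per transcript length, with the deposited FPKM (fragments scaled to transcript length and to the mapped fragments of the library), Fzd2 was the most abundant receptor in every library. Its level was 33.5, 65.3, 29.6 and 33.8 FPKM. Lrp5 came second by deposited FPKM in all 4 libraries, at 19.6, 35.5, 25.6 and 29.5 FPKM. The order among Lrp5, Lrp6, Fzd7 and Fzd8 depends on the gene lengths used. Other lengths were tried for the Frizzled shares alone. Places 3 to 5 were shared by Lrp6, Fzd7 and Fzd8 in an order that differed between libraries. In high-passage DPCs, for example, Lrp5, Fzd7 and Fzd8 stood at 35.5, 34.5 and 31.7 FPKM, neighbours whose order cannot be set against any replicate spread. Fzd1 and Fzd5 took places 6 and 7, between 2.79 and 9.79 FPKM. Fzd3, Fzd4 and Fzd6 took the last 3 places in every library, between 0.198 and 3.24 FPKM. Against all tested genes, Fzd2 stood between the percentiles 86.8 and 94.6 of FPKM and Fzd3 between 8.15 and 19.8.

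The sum over the 8 Frizzleds was 66.1 FPKM in low-passage DPCs and 149 in high-passage DPCs, 2.25 times as much, and 78.6 and 95.4 FPKM in the DSC libraries, 1.21 times as much. Lrp5 and Lrp6 together went from 34.5 to 59.5 FPKM in DPCs (1.73 times) and from 45.2 to 55.9 in DSCs (1.24 times). The ratio of Frizzled to Lrp transcripts was thus 1.92, 2.50, 1.74 and 1.71, highest in high-passage DPCs. Within the Frizzled sum, Fzd1, Fzd2 and Fzd7 made up 76.2%, 72.0%, 64.2% and 62.4%. Fzd5 and Fzd8 made up 20.3%, 25.5%, 31.7% and 32.5%, so the DSC libraries held a larger share of this pair at both passages. Fzd4 fell to 0.272% of the sum in high-passage DPCs from 1.85% at low passage, and made up 1.83% and 1.46% in DSCs. The ratio of Fzd2 to Fzd7 went from 2.62 to 1.89 in DPCs and from 2.49 to 2.06 in DSCs. The FPKM tables give no depth, so these shares carry no interval.

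**Figure D1:**
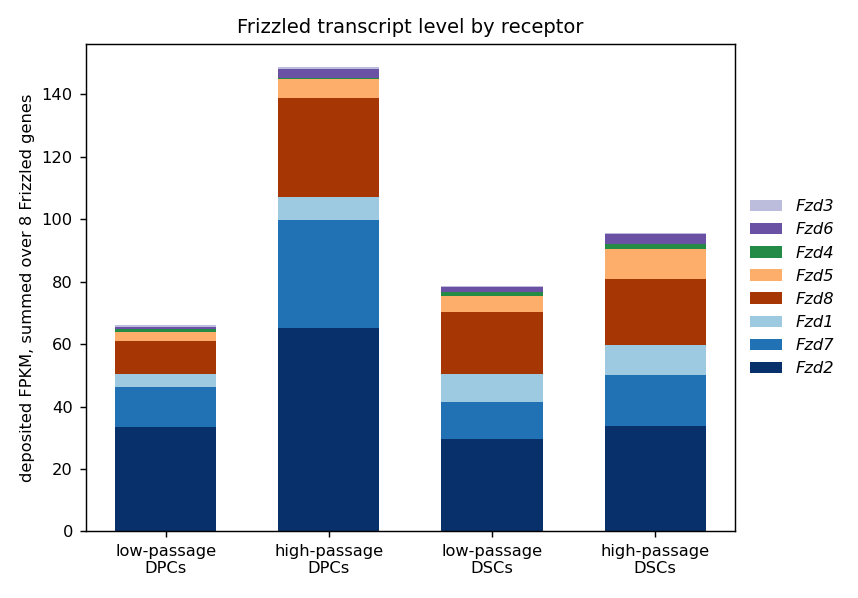
Deposited FPKM of the 8 Frizzled genes (vertical axis, FPKM, from 0) stacked in each of the 4 libraries, 1 library per group, with 1 colour per gene. The stack of high-passage DPCs reaches 149 FPKM against 66.1 to 95.4 in the others, and Fzd2 is the tallest block in each.

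Levels of single receptors between libraries are given as CPM scaled with the TMM method, with the 95% interval of the count where it is wide. Such intervals cover counting error only. Fzd2 (ENSMUSG00000050288, chromosome 11, 102604396 to 102608058), which transduces both β-catenin and Wnt5a signals, was at 133, 262, 125 and 146 CPM. High-passage DPCs stood apart and the other 3 libraries lay within 125 to 146. Fzd7 (ENSMUSG00000041075, chromosome 1, 59482424 to 59486955), a receptor known from stem cell populations, had the same layout at 63.0, 171, 62.4 and 87.4 CPM. At low passage Fzd7 was nearly the same in DPCs and DSCs, with a log2 difference of 0.01 (95% interval -0.07 to 0.10). Fzd1 (ENSMUSG00000044674, chromosome 5, 4753839 to 4758035), their closest relative, was instead higher in both DSC libraries, at 18.7, 33.7, 43.2 and 46.6 CPM.

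Fzd5 (ENSMUSG00000045005, chromosome 1, 64730558 to 64737751), a receptor for canonical Wnts, stood at 19.9, 41.9, 36.2 and 73.7 CPM. Both high-passage libraries were about 2 times their low-passage partners, and each DSC library was above the DPC library of its passage. Its paralog Fzd8 (ENSMUSG00000036904) stood at 38.7, 116, 76.9 and 83.9 CPM, lowest in low-passage DPCs and highest in high-passage DPCs. Fzd5 and Fzd8 thus differed in layout although they are the most alike pair outside Fzd1, Fzd2 and Fzd7.

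Fzd4 (ENSMUSG00000049791, chromosome 7, 89404355 to 89413134), the receptor for norrin in blood vessel growth, had 330, 107, 425 and 503 counts. In CPM this was 8.97 (95% interval 8.03 to 9.99), 2.98 (2.44 to 3.60), 11.2 (10.2 to 12.3) and 11.0 (10.1 to 12.0). High-passage DPCs were the low library, and the DSC libraries could not be separated by their counts.

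Fzd3 (ENSMUSG00000007989, chromosome 14), a polarity receptor known from axon guidance, had few reads throughout, with 99, 78, 42 and 45 counts. Its CPM was 2.69 (2.19 to 3.28), 2.17 (1.72 to 2.71), 1.11 (0.798 to 1.50) and 0.987 (0.720 to 1.32), so both DPC libraries were above both DSC libraries. Fzd6 (ENSMUSG00000022297, chromosome 15), the other polarity receptor, known for hair patterning and nail growth, had 86, 456, 285 and 710 counts. Its CPM was 2.34 (1.87 to 2.89), 12.7 (11.6 to 13.9), 7.52 (6.67 to 8.44) and 15.6 (14.5 to 16.8), which was the widest range of any member at 2.71 on the log2 scale.

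Lrp5 (ENSMUSG00000024913, chromosome 19, 3584828 to 3686564), known for its role in bone mass, stood at 110, 199, 151 and 177 CPM. Lrp6 (ENSMUSG00000030201, chromosome 6, 134446476 to 134566965), the more potent of the co-receptors in most tissues, stood at 139, 228, 196 and 273 CPM. Low-passage DPCs were lowest for both, while the highest library was high-passage DPCs for Lrp5 and high-passage DSCs for Lrp6. These had the narrowest ranges of the 10 members, 0.86 for Lrp5 and 0.97 for Lrp6 on the log2 scale. By deposited FPKM, Lrp5 was 1.31, 1.48, 1.32 and 1.12 times Lrp6, a ratio that depends on the gene lengths used.

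**Figure D2:**
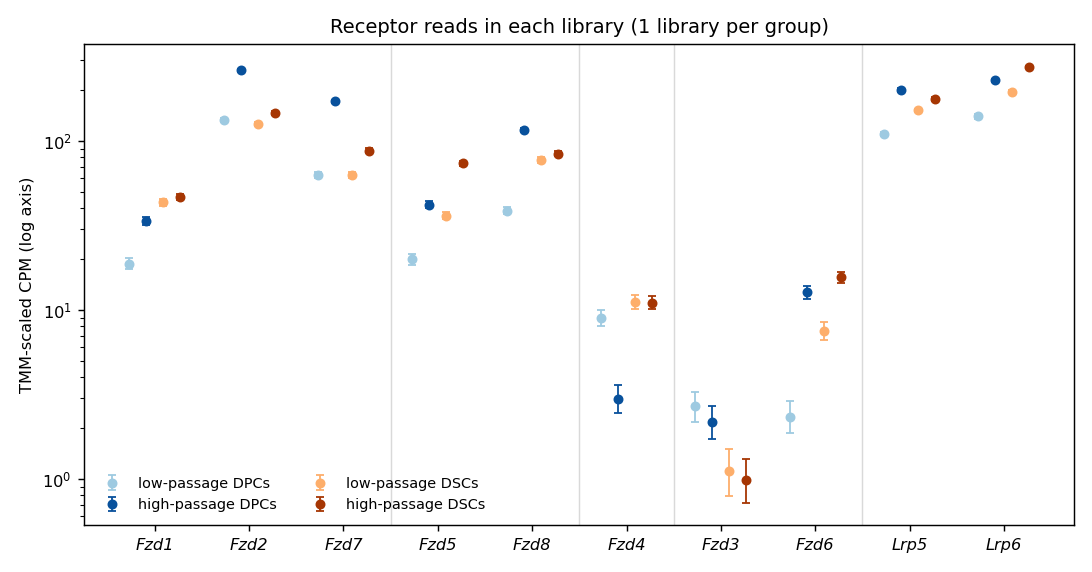
TMM-scaled CPM (log axis) of the 10 receptors in each library; points are libraries, bars are 95% counting intervals, and grey lines part the subfamilies. Fzd2, Lrp5 and Lrp6 lie above 100 CPM throughout, Fzd3 lies under 3 CPM, and high-passage DPCs are the low point of Fzd4 alone.

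With passage in DPCs, most receptors were more abundant. Of the 10, 4 were at least 2-fold higher at passage 9 (Fzd5, Fzd6, Fzd7 and Fzd8), where 16.1% of all tested genes were, and 1 was at least 2-fold lower (Fzd4), where 15% were. Fzd6 had the greatest change, 2.42 on the log2 scale (95% interval 2.11 to 2.79), and was the 1 member at least 4-fold higher, where 5.58% of tested genes were. Fzd8 changed by 1.59 (1.50 to 1.67), Fzd7 by 1.44 (1.37 to 1.51) and Fzd5 by 1.07 (0.95 to 1.20). Fzd2 changed by 0.97 (0.92 to 1.02), Lrp5 by 0.86 (0.81 to 0.92), Fzd1 by 0.84 (0.71 to 0.98) and Lrp6 by 0.71 (0.66 to 0.76), all under 2-fold. Fzd4 fell by 1.57 on the log2 scale (interval -1.92 to -1.27). Fzd3 differed by -0.30 (-0.75 to 0.14), which was not detectable at this depth.

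The members' median change in DPCs was 0.92, beside 0.03 over all tested genes. The interval lay above 0 for 8 members (39.8% of tested genes) and under 0 for 1 (37.8%). It rests on how the reads of both libraries divide between them, so it compares these libraries and not the conditions. From log2(FPKM + 1), in which low genes are compressed, Fzd4 and Fzd5 were no longer past 2-fold (-0.66 for Fzd4 and 0.93 for Fzd5) and Fzd6 no longer past 4-fold (1.34).

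In DSCs most of the receptors moved less, while Fzd5 moved about as much as in DPCs. Fzd6 changed by 1.05 (0.85 to 1.26) and Fzd5 by 1.03 (0.94 to 1.12), and these 2 were at least 2-fold higher, where 8.55% of tested genes were. None was 2-fold lower, where 6.21% were. Fzd7 changed by 0.49 (0.41 to 0.56), Lrp6 by 0.48 (0.44 to 0.52), Lrp5 by 0.23 (0.18 to 0.27), Fzd2 by 0.22 (0.16 to 0.27), Fzd8 by 0.13 (0.06 to 0.20) and Fzd1 by 0.11 (0.01 to 0.20). Fzd4 differed by -0.02 (-0.21 to 0.17) and Fzd3 by -0.16 (-0.81 to 0.48). The interval was above 0 for 8 members (33.9% of tested genes) and under 0 for 0 (32.9%). The median over the members was 0.22, beside 0.00 over all tested genes.

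Fzd5 and Fzd6 were 2-fold higher in both cell types, where 4.86% of tested genes were. Both sit close to the threshold in DSCs. Neither passed it there on the log2(FPKM + 0.1) or log2(FPKM + 1) scale, and Fzd5 did not pass it when libraries were scaled by total counts.

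**Figure D3:**
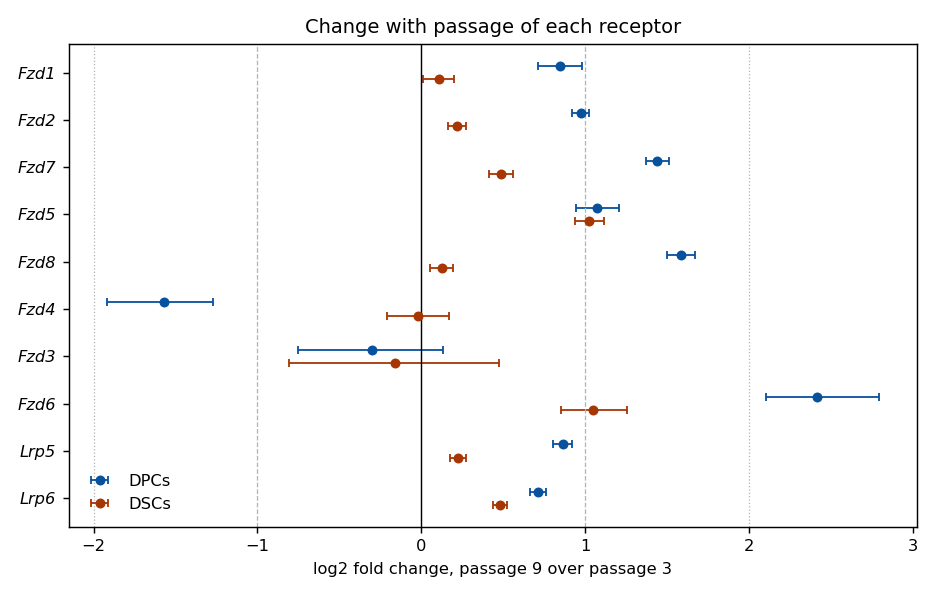
Log2 fold change of each receptor from passage 3 to passage 9 (horizontal axis) in DPCs (blue) and DSCs (orange), with 95% counting intervals from 1 library per group. Dashed lines mark 2-fold and dotted lines 4-fold; Fzd5 has nearly equal values of 1.07 and 1.03, and Fzd4 is the receptor on the far left, at -1.57 in DPCs.

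Set against each other, the changes of DPCs and DSCs differed for most receptors. The signed passage change was higher in DPCs for 7 members, with the counting interval of the difference above 0, where 30.7% of tested genes were. It was lower in DPCs for 1, Fzd4, which fell there, where 32.2% of tested genes were lower. The difference was 1.46 for Fzd8 (1.35 to 1.57), 1.37 for Fzd6 (0.98 to 1.76), 0.96 for Fzd7 (0.85 to 1.06), 0.76 for Fzd2 (0.68 to 0.83), 0.74 for Fzd1 (0.57 to 0.90), 0.64 for Lrp5 (0.56 to 0.71) and 0.23 for Lrp6 (0.17 to 0.30). It was -1.55 for Fzd4 (-1.92 to -1.18). Fzd5 had a difference of 0.05, with an interval of -0.11 to 0.20 that bounds how unlike its changes could be by counting alone. For Fzd3 the interval of -0.89 to 0.60 was too wide to tell. The median difference over the members was 0.69, beside -0.01 over all tested genes.

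Between the cell types at passage 3, the receptors tended to be lower in DPCs. These contrasts use the libraries of the passage contrasts again and are not separate evidence. Fzd3 was 2-fold higher in DPCs, at 1.24 (0.75 to 1.84), where 5.43% of tested genes were. Fzd6 at -1.66 (-2.05 to -1.33) and Fzd1 at -1.20 (-1.34 to -1.08) were 2-fold lower, where 7.86% were. Fzd8 at -0.99 (-1.08 to -0.90) and Fzd5 at -0.86 (-0.99 to -0.73) were just under that size. Lrp6 differed by -0.49, Lrp5 by -0.46, Fzd4 by -0.32 and Fzd2 by 0.09. The members' median was -0.48, beside 0.00 over all tested genes.

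At passage 9 the members were split, with 5 higher and 5 lower in DPCs. Fzd3 was again 2-fold higher, at 1.10 (0.59 to 1.70), where 9.11% of tested genes were, and Fzd4 was 2-fold lower, at -1.87 (-2.20 to -1.58), where 11% were. Fzd7 at 0.97 (0.91 to 1.03) and Fzd2 at 0.84 (0.80 to 0.89) were higher in DPCs. Fzd8 stood at 0.47 (0.41 to 0.53) and Lrp5 at 0.17 (0.13 to 0.22), the reverse of their sign at passage 3. Fzd5 stood at -0.81 (-0.90 to -0.73), close to its value at passage 3. The median was -0.04, beside -0.01 over all tested genes. The calls of Fzd3 rest on few reads and were lost at both passages with log2(FPKM + 1).

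**Figure D4:**
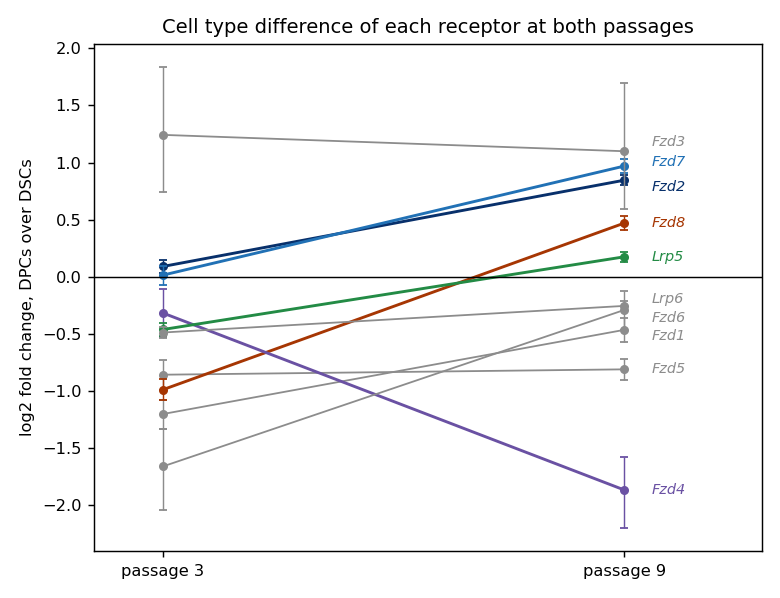
Log2 fold change of DPCs over DSCs (vertical axis) at passage 3 and passage 9 for each receptor, with 95% counting intervals; lines join the values of 1 gene. Fzd8 goes from -0.99 to 0.47 and Lrp5 from -0.46 to 0.17 across the line at 0, Fzd4 falls to -1.87, and Fzd5 stays near -0.8.

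A passage term was also fitted across all tested genes with cell type as the other term, in edgeR's quasi-likelihood model with Benjamini-Hochberg adjustment. The fit has 1 residual degree of freedom, which comes from how unlike DPCs and DSCs responded and not from replicate cultures. The edgeR model called 0 of 16734 genes, with 2822 at an unadjusted p under 0.05, and DESeq2 called 964. In edgeR's quasi-likelihood test of the members, Fzd5 had a log2 fold change of 1.05 (adjusted p = 0.192), Fzd6 1.73 (adjusted p = 0.225) and Fzd7 0.96 (adjusted p = 0.257), the 3 members whose unadjusted p was under 0.05. With DESeq2's Wald test, 2 members passed, Fzd6 (adjusted p = 0.0183) and Fzd5 (adjusted p = 0.0242). Both receptors were higher at passage 9 in 2 of 2 cell types, as were Fzd1, Fzd2, Fzd7, Fzd8, Lrp5 and Lrp6.

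The genes around the receptors in the pathway were described from lists by function, in counts of those at least 2-fold changed. Among 6 tested receptors and co-receptors of other families, 1 was higher and 2 were lower in DPCs, and 0 and 2 in DSCs. Lrp4, a co-receptor of agrin that binds Wnt inhibitors, had 207, 1052, 628 and 667 counts, a change of 2.37 in DPCs and -0.18 in DSCs. Ror1, a Wnt5a receptor of the tyrosine kinase class, had 768, 222, 704 and 375 counts and was lower in both, with changes of -1.75 and -1.17. Musk, a muscle kinase with a Frizzled-like domain, had 51, 4, 285 and 65 counts.

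Of 9 tested genes of receptor turnover, which set how much Frizzled stays on the surface, 3 were higher and 1 lower in DPCs and 2 higher in DSCs. The R-spondin receptor Lgr6 had 137, 501, 888 and 2027 counts, a change of 1.89 in DPCs and 0.92 in DSCs. Its relative Lgr5 went opposite ways, with 212, 64, 14 and 124 counts, changes of -1.66 (-2.12 to -1.28) and 2.72 (2.08 to 3.79). The ligands Rspo1 and Rspo3 changed by 1.94 and 1.50 in DPCs, and by -0.59 and 0.44 in DSCs. Znrf3, a ligase that removes Frizzleds from the surface, had changes of -0.03 (-0.21 to 0.14) and -0.32 (-0.50 to -0.15).

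Among 9 tested chaperones and cofactors, 3 were higher and 1 lower in DPCs, and 2 were higher in DSCs. Gpc3, a heparan sulfate proteoglycan that binds Wnts and Frizzleds, had 664, 13146, 70 and 678 counts, changes of 4.34 (4.23 to 4.46) and 2.98 (2.65 to 3.39). Fzd4 has partners of its own here. Ndp, which encodes norrin, had 8, 45, 5 and 13 counts, and Tspan12, its tetraspanin cofactor, changed by 1.06 (0.86 to 1.28) in DPCs, where Fzd4 fell, and by -0.97 (-1.23 to -0.73) in DSCs. Tpbg, a Wnt inhibitor at the membrane, changed by -1.83 and 0.85. Mesd, the chaperone of Lrp5 and Lrp6 (listed as Mesdc2), changed by 0.18 and -0.07.

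Some secreted antagonists changed by more than any receptor. Of 4 tested that bind Frizzled or Wnt, 2 were higher and 1 was lower in DPCs and 2 were higher in DSCs. Sfrp1, which carries a Frizzled-like domain, had 661, 69887, 339 and 6342 counts. Sfrp2 had 0, 32, 11 and 6 counts, 10.9-fold higher in high-passage DPCs if the count of 0 is set to 3. Its counting interval began at 3.07 on the log2 scale. Sfrp4 had 21, 6, 23 and 66 counts. Of 3 tested that bind Lrp5 and Lrp6 or are of the same families, 1 was higher and 1 lower in DPCs and 2 were higher in DSCs. Dkk2 had 178, 99, 248 and 6695 counts, a change of -0.80 in DPCs and 4.48 (4.31 to 4.68) in DSCs. Dkk3, a family member not known to bind Lrp6 firmly, had 14871, 74814, 15438 and 51948 counts. Sostdc1 had 61, 0, 0 and 2 counts and was 19.8-fold lower in high-passage DPCs if the count of 0 is set to 3. Its counting interval lay below -3.97 on the log2 scale.

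Of 8 tested Wnt ligands, 3 were higher and 2 lower in DPCs, and 3 and 1 in DSCs; 6 of the 19 listed had no count in any library. Wnt5a, a ligand of Fzd2, Fzd5 and Ror receptors, had the most reads of the ligands, with 4711, 14803, 4400 and 7368 counts, changes of 1.69 (1.64 to 1.74) and 0.48 (0.42 to 0.53). Wnt2b changed by 2.64 (2.24 to 3.17) and 1.27 (0.64 to 2.09). Wnt4 had 94, 4, 187 and 98 counts, and Wnt7b had 0, 0, 0 and 47.

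None of 12 cytoplasmic transducers was 2-fold changed in DPCs, and Apc alone in DSCs, at -1.10 (-1.16 to -1.04) against 0.62 in DPCs. The median over the list was -0.04 in DPCs and -0.21 in DSCs. Of 8 tested target and feedback genes, 3 were higher and 4 lower in DPCs, and 1 and 2 in DSCs. Lef1, a TCF/LEF factor, had 508, 2, 101 and 55 counts, a change of -7.02 (-11 to -6.09) in DPCs and -1.11 (-1.64 to -0.65) in DSCs. Axin2, a feedback inhibitor that is a standard readout of β-catenin, had 4, 218, 34 and 74 counts. Notum, which removes the lipid of Wnts, had 4, 127, 0 and 0 counts. Targets thus moved both ways in DPCs. The choice of Sfrp1 and Axin2 was made by the study on these same libraries, so they are no independent support.

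**Figure D5:**
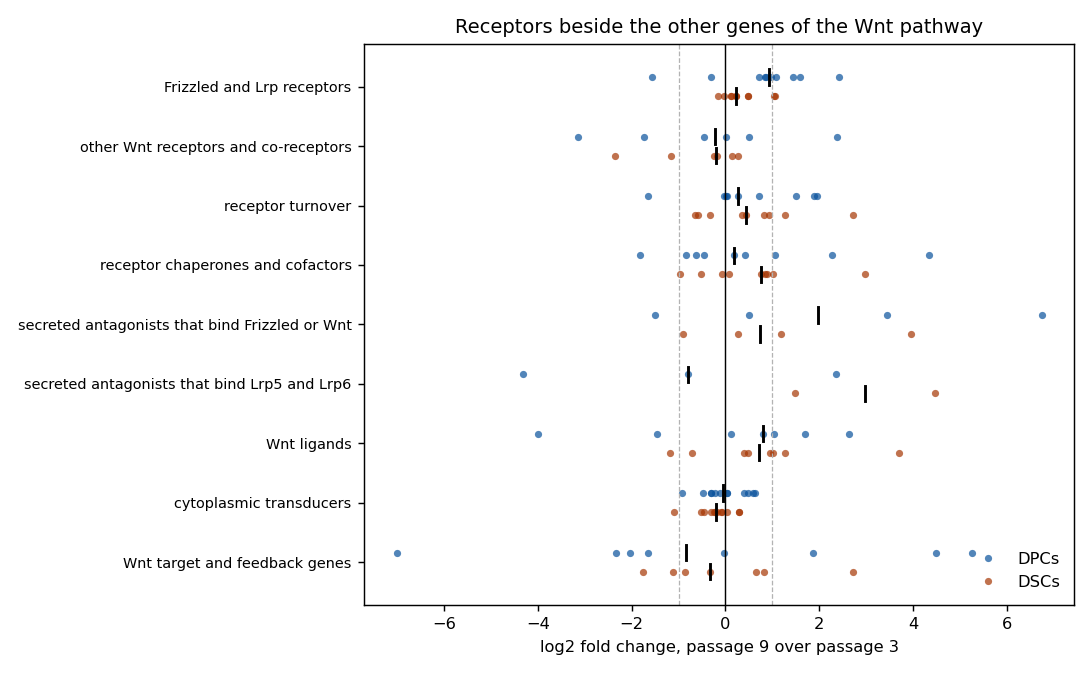
Log2 fold change from passage 3 to passage 9 of the tested genes of each list (horizontal axis), in DPCs (blue) and DSCs (orange); points are genes and black ticks their median, with genes at 0 in 1 library put at the bound that 3 counts allow and genes at 3 counts or fewer in both left out. The receptors' median lies at 0.92 in DPCs and 0.22 in DSCs, the transducers lie between -0.92 and 0.62 in DPCs, and the target genes spread from -7.02 to 5.26 in DPCs.

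The member with the widest range, Fzd6, was compared with 12191 genes whose raw counts averaged 100 or more, by the distance between their centred log2 CPM over the 4 libraries. The closest were B130024G19Rik (distance 0.12), Igdcc4 (0.17), Rtp4 (0.22), Itga10 (0.25) and Flrt2 (0.28). Igdcc4, an immunoglobulin superfamily protein of the membrane, had 335, 1618, 1038 and 2318 counts. Flrt2, an adhesion protein that also serves in axon guidance, had 5910, 24197, 18175 and 39944 counts. All 5 were lowest in low-passage DPCs and highest in high-passage DSCs, as Fzd6 was. With 4 libraries such a likeness is a description.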

How the data were processed

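RNA-seq counts and FPKM of 4 libraries were used, 1 per group. The authors deposited raw counts per gene, which are whole numbers and not normalized, and FPKM tables, which they scaled by length and mapped fragments. Poly-T selection and paired-end sequencing are given in the methods, and the labels name another library kit. The submitters' processing notes name Bowtie 0.12.2 and builds mm8 and mm9, while 94.2% of the 51633 gene IDs found in GENCODE M21 (GRCm38) had the same position there. The counting program and the use of strand are not given in the sources used here.

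Counts were scaled by TMM in edgeR 4.0.16 (R 4.3.3), and fold changes were taken from log2 CPM, to which a prior count of 2 had been added. Exact Clopper-Pearson 95% intervals cover counting error only. Reads without molecular identifiers are not independent molecules, and halved counts served as the alternative if both mates of a pair had been counted. The additive model used edgeR's quasi-likelihood test, with DESeq2 1.42.0 as the alternative. The models were tested on simulated data.

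The members and the gene lists were chosen with earlier results of these data known. Named genes are the members, up to 4 genes per list with the largest change of 2-fold or more in either cell type, Axin2, Lef1 and Sfrp1, and the 5 genes most like the member of widest range. Other genes were named after their values were seen: Znrf3, Mesd and the markers.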

Additional observations from a re-analysis of the deposited data

Results flagged for a closer look

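The sign of the cell type difference changed between the passages for 2 of the 10 receptors. The share of all tested genes with such a change was not counted, so 2 of 10 cannot be called more or fewer than usual. Fzd8 was lower in DPCs than in DSCs at passage 3, with a log2 fold change of -0.99, and higher in DPCs at passage 9, at 0.47. Lrp5 was lower in DPCs at passage 3, at -0.46, and higher at passage 9, at 0.17. With 1 library per group the difference between conditions was not tested. The counting intervals of all 4 values exclude 0, also with halved counts.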

How the results depend on the processing

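With 1 library per group, no replicates could be paired and no library could be left out. The additive model compares passages within cell types. No setting reversed a call or a sign of the members' fold changes, and 306 of 356 recomputed values stayed within their counting interval. With log2(FPKM + 1), the receptors past 2-fold went from 5 to 3 in DPCs (Fzd6, Fzd7 and Fzd8, so 0 lower), from 2 to 0 in DSCs, from 3 to 0 between cell types at passage 3 and from 2 to 1 at passage 9 (Fzd7), and those past 4-fold in DPCs from 1 to 0. A pseudocount of 0.1 also left 0 in DSCs, and total counts left 1 (Fzd6). At passage 9, a prior count of 10 or a minimum mean count of 100, which Fzd3 does not reach, left 1 (Fzd4), log2(FPKM + 0.1) gave Fzd7 in place of Fzd3, and total counts added Fzd7. At passage 3, the minimum of 100 left 2 of 3 (without Fzd3). That minimum also added Fzd2 to the receptors 2-fold higher in DPCs. Halved counts left 7 of 8 intervals above 0 in DSCs, without Fzd1, and changed no other count of intervals. By counts per kilobase of all exons of a gene, Fzd2 made up 55.1%, 49.0%, 43.0% and 39.9% of the Frizzled sum. By FPKM it made up 50.7%, 43.9%, 37.7% and 35.4%. Fzd1, Fzd2 and Fzd7 together made up 82.8%, 80.3%, 73.1% and 70.3% by exon length. Fzd5 and Fzd8 made up 14.1%, 17.5%, 22.7% and 24.7%, still more in the DSC libraries. Fzd8 alone made up 9.78%, 13.3%, 16.1% and 14.1% in place of 16.1%, 21.3%, 25.3% and 22.3%. Fzd3, Fzd6 and Fzd8 have another extent in GENCODE M21 than in the deposited tables. The part of this in the shares was not tested. In the additive model, DESeq2 called 964 genes where edgeR called 0, with either scaling or with no minimum count. Fzd3, with the fewest reads summed over the libraries, had the widest interval in every comparison.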
